A study of Mus musculus with 20 samples.

Results

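The insulin, FoxO and nutrient sensing genes described here are 10 transcripts: the receptors Insr and Igf1r, the receptor substrates Irs1 and Irs2, the transcription factors Foxo1 and Foxo3, the sestrins Sesn1 and Sesn3, the thioredoxin-interacting protein gene Txnip, and Eif4ebp1. They were chosen by name, not by a measured value, though with earlier results of these data known. All 10 had a probe set and all 10 were among the 14129 genes tested, out of 18704 genes with a probe set of 1 symbol. Hypothalamic RNA from male C57BL/6J mice made obese by diet was hybridised to 20 Affymetrix arrays, and expression is given as log2 intensity. All mice began a diet with 45% fat at 4 weeks of age and received it for 16 weeks, so every group shares obesity and no lean group enters. The vehicle groups were injected into the peritoneum with dimethyl sulfoxide (DMSO, 25 µl per day) and were measured at 6 h, 1 day and 4 days, with 3 arrays each. The treated groups received celastrol, a plant triterpenoid known to lower food intake in obese mice, in the same daily volume of DMSO, so all groups share the vehicle, and were measured at 6 h (4 arrays), 1 day (4 arrays) and 4 days (3 arrays). The labels state a celastrol dose of 250 µg/kg beside the 6 h time.

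Insulin and IGF1 bind the receptor tyrosine kinases encoded by Insr and Igf1r. These phosphorylate the docking proteins IRS1 and IRS2, which recruit PI3 kinase and so activate AKT. AKT phosphorylates the FoxO factors and keeps them out of the nucleus, and in hypothalamic neurons FoxO1 is known to regulate the feeding peptides Agrp and Pomc. AKT also activates mTORC1, which phosphorylates 4E-BP1 (Eif4ebp1) and thereby frees the cap-binding protein eIF4E. Sestrins restrain mTORC1 under amino acid shortage and stress, and Txnip binds thioredoxin and limits glucose uptake. Much of this signalling runs through phosphorylation and localisation, which an expression array does not measure.

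The labelled region was checked on 12 hypothalamic markers, of which 11 were tested, with a mean over all arrays from 8.63 for Nr5a1 to 12.94 for Pmch and a list mean of 10.78 to 10.84 across the 6 groups. The lowest correlation between arrays of a group was 0.992. DMSO replicate 3 at 6 h and DMSO replicate 3 at 1 day stood apart on the leading component of the residuals, with scores of 11.4 and 9.61 against -6.13 to 5.32 for the other arrays. The mean of 6 thalamus markers was 10.66 to 11.15 on the 3 DMSO arrays at 6 h and 10.41 to 10.69 on the other 17, with 1 celastrol array at 6 h inside the upper range. The pituitary hormone Prl read 10.004 on celastrol replicate 4 at 6 h and 7.65 on replicate 1, against at most 6.62 on the others. Arrays of 1 group are labelled as biological replicates, and p-values measure the spread between these arrays.

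None of the 10 genes passed an adjusted p of 0.05 (limma's moderated test, adjusted over 14129 genes) in any of 13 comparisons between treatments or times. In celastrol against DMSO, the share of all genes that passed was 0% at 6 h, 0.425% at 1 day (60 genes), 0.0637% at 4 days (9 genes) and 0.573% for the average over the times (81 genes). At an unadjusted p under 0.05, 1 of the 10 genes stood out at 6 h (Irs1), 1 at 1 day (Txnip), 3 at 4 days (Foxo1, Foxo3 and Txnip) and 4 in the average (Irs2, Foxo1, Sesn3 and Txnip). The corresponding shares of all genes were 7.55%, 8.19%, 6.53% and 8.78%. The genes' median log2 difference, celastrol minus DMSO, was -0.045 at 6 h, 0.060 at 1 day and 0.081 at 4 days, against -0.015, 0.0063 and 0.0075 for all tested genes. The difference lay above 0 for 4 of the 10 genes at 6 h and for 8 at 1 day, at 4 days and in the average, against 41.7%, 53.8%, 54.4% and 49.9% of all genes. In bulk tissue, fewer cells of a type and less RNA per cell cannot be told apart.

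**Figure D1:**
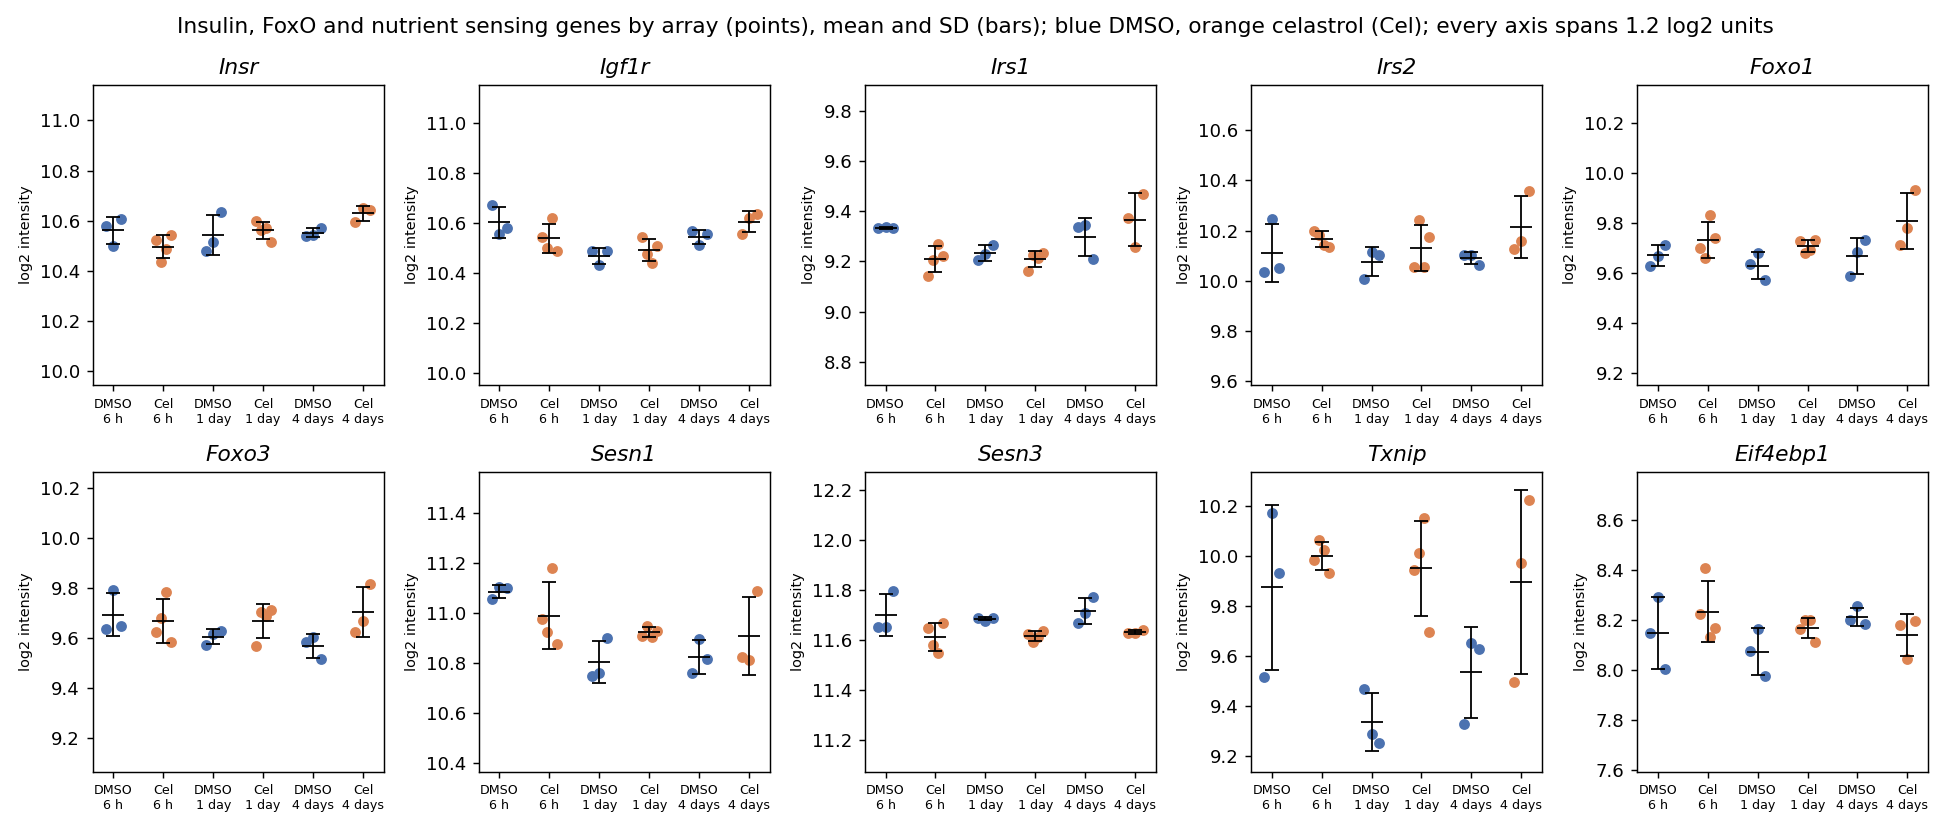
Log2 intensity of each of the 10 genes on each array, with the group mean and SD; blue points are DMSO arrays and orange points celastrol (Cel) arrays, and every axis spans 1.2 log2 units. Txnip spreads most, with group means from 9.34 to 10.001, while the group means of Sesn3 span 0.10.

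The intervals show what size of change these arrays left room for. At each of the 3 times, 9 of the 10 genes had a 95% interval of the difference that lay within 0.3 log2 units of 0, a 1.23-fold change in either direction. Txnip was the exception at every time. Without it, the farthest bound of any interval was 0.24 at 6 h, 0.27 at 1 day and 0.26 at 4 days, which correspond to 1.18-fold at 6 h and 1.2-fold at the later times. For the average over the times it was 0.16, or 1.12-fold. The spread between replicates differed among these genes. The SD within groups was 0.047 for Insr, Igf1r and Sesn3, above that of 8.61%, 8.60% and 8.01% of all tested genes. For Irs1, Foxo1 and Foxo3 it was above that of 19.7%, 32.2% and 42.0%. For Irs2, Eif4ebp1 and Sesn1 it was above that of 52.7%, 65.7% and 66.4%. For Txnip it was 0.224, above that of 99.2%.

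**Figure D2:**
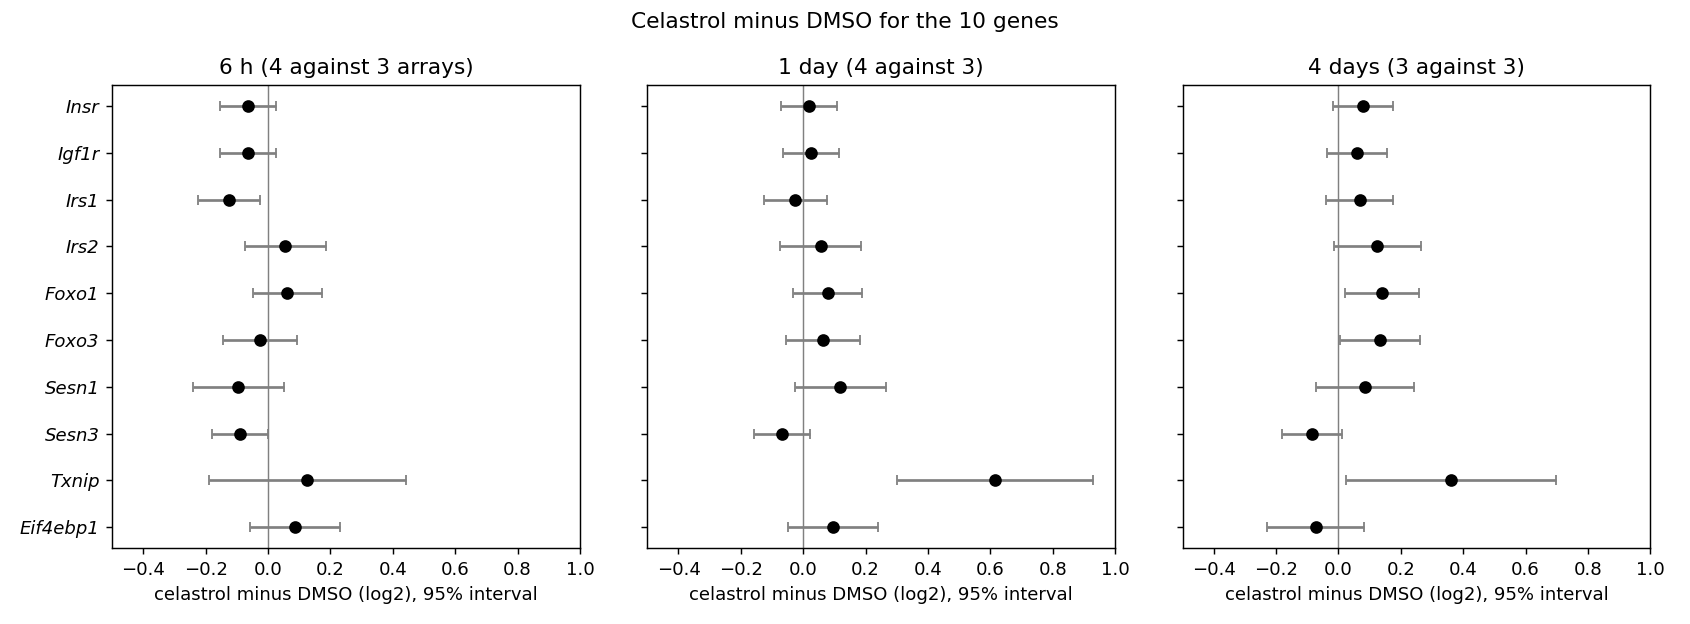
Celastrol minus DMSO on the log2 scale for the 10 genes at 6 h, 1 day and 4 days, with 95% intervals from limma. The interval of Txnip reaches from 0.30 to 0.93 at 1 day and stands apart from those of the other 9 genes, all of which lie within 0.3 of 0.

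Of the receptors, Insr read 10.52, 10.44, 10.48 and 10.54 on the celastrol arrays at 6 h against 10.58, 10.50 and 10.61 on the DMSO arrays. At 4 days the celastrol arrays read 10.60, 10.65 and 10.64 and the DMSO arrays 10.54, 10.54 and 10.57, and the groups did not overlap. The difference was -0.065 ± 0.043 (SE, n = 4 and 3; limma adjusted p = 0.711) at 6 h, 0.019 ± 0.043 (0.948) at 1 day and 0.078 ± 0.046 (n = 3 and 3; 0.841) at 4 days. A gene whose 4 day groups did not overlap was common, at 14.4% of all tested genes, and 4 of the 10 genes here were among them: Insr, Irs2 and Foxo3 with celastrol higher and Sesn3 with celastrol lower. Insr has a second, dimmer probe set that correlated with the brighter one at r = 0.547 over the 20 arrays. Its differences were -0.028, 0.045 and 0.11 at the 3 times, in the same order as those of the brighter one. At 4 days the dimmer set read 10.22 ± 0.019 (SD, n = 3) with celastrol and 10.12 ± 0.019 (n = 3) with DMSO. It was not tested by itself.

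Igf1r encodes the IGF1 receptor, which can pair with the insulin receptor in hybrid dimers. On the celastrol arrays it read from 10.49 to 10.62 at 6 h, 10.44 to 10.55 at 1 day and 10.56 to 10.64 at 4 days. The DMSO ranges were 10.56 to 10.67, 10.43 to 10.49 and 10.51 to 10.57. Its differences were -0.065 ± 0.043, 0.024 ± 0.043 and 0.060 ± 0.046 (limma adjusted p from 0.711 to 0.933), and the groups overlapped at every time. In the order of its group means, the only step wider than its SD within groups was 0.058, from DMSO at 4 days to DMSO at 6 h. Steps of this kind, here and below, set sorted means against the SD of single arrays, so they describe and do not test.

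Among the receptor substrates, Irs1 was the only one of the 10 genes with an unadjusted p under 0.05 at 6 h. It read 9.33, 9.34 and 9.33 on the DMSO arrays and 9.14, 9.20, 9.27 and 9.22 on the celastrol arrays, so the celastrol values all lay below. The difference was -0.12 ± 0.048 (95% interval -0.23 to -0.024, limma adjusted p = 0.631), a level 1.09-fold lower. It was the one non-overlapping gene of the 10 at 6 h, where 6.35% of all genes did not overlap. The DMSO group at 6 h was unusually tight for Irs1, with an SD of 0.0031 against 0.052 in the celastrol group. At 1 day the difference was -0.025 ± 0.048 (adjusted p = 0.936), and at 4 days 0.069 ± 0.051 (0.897), where celastrol arrays read 9.37, 9.26 and 9.47. The 4 day difference minus the 6 h difference was 0.19 ± 0.070 (limma adjusted p = 0.611), a test that 0.0142% of all genes passed. In it, 2 of the 10 had an unadjusted p under 0.05, Irs1 and Insr, against 7.68% of all genes. Between 4 days and 1 day the celastrol differences of none of the 10 stood out even unadjusted (0.00708% of all genes adjusted, 2.47% unadjusted). Among the celastrol arrays alone, those at 4 days stood 0.16 ± 0.048 above those at 6 h for Irs1 (limma adjusted p = 0.0913) and 0.13 ± 0.043 for Insr (0.106). In that comparison 0.892% of all genes passed, 20.3% had an unadjusted p under 0.05, and with array weights Irs1 passed too (adjusted p = 0.0487). The celastrol groups at 6 h and 4 days did not overlap for Insr alone of the 10, against 21.6% of all genes.

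Irs2, the substrate that carries much of hypothalamic insulin and leptin signalling to PI3 kinase in mice, had differences above 0 at all 3 times. At 4 days it read 10.13, 10.16 and 10.36 on the celastrol arrays against 10.10, 10.10 and 10.06, without overlap. The differences were 0.055 ± 0.062, 0.056 ± 0.062 and 0.12 ± 0.066 (limma adjusted p from 0.802 to 0.865), and the average was 0.079 ± 0.037 (0.549). No step in the order of its group means exceeded its SD within groups of 0.083. The windows before the start sites of Irs1 and Irs2 are printed because both hold an E box, CACGTG, beside the insulin response sequence CAAAACA, a FoxO-binding element. They are RefSeq windows on GRCm38.p6, 250 bases before to 50 bases after the start, at chr1:82291390-82291689 (minus strand) and chr8:11008880-11009179 (minus strand). Capitals mark these motifs, with TGTTTTG as the reverse strand form of CAAAACA.
Irs1: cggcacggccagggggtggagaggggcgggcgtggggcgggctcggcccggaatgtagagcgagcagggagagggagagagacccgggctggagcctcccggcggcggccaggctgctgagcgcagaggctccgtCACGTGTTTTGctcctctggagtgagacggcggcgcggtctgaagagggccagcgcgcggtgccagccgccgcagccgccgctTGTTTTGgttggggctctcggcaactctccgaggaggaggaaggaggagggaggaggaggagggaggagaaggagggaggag
Irs2: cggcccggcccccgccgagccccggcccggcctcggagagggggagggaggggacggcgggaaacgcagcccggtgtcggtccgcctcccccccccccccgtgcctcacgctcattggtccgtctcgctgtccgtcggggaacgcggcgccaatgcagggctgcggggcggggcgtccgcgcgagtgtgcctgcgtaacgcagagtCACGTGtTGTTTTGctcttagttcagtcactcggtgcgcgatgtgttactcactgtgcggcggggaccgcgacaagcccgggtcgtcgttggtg

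In Irs1 the E box begins 115 bases before the start and overlaps an insulin response sequence that begins 111 bases before it, and another begins 32 bases before it. In Irs2 the E box begins 44 bases and the insulin response sequence 37 bases before the start. Of 32851 promoter windows of this length, 7.15% hold CACGTG and 6.28% hold CAAAACA on either strand. A match describes the letters in the window and not a bound site.

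The FoxO factors bind DNA when insulin signalling is low. Foxo1 had differences of 0.062 ± 0.053 at 6 h, 0.078 ± 0.053 at 1 day and 0.14 ± 0.057 at 4 days (limma adjusted p = 0.770, 0.735 and 0.707). At 4 days it read 9.71, 9.78 and 9.93 on celastrol arrays against 9.59, 9.69 and 9.73 on DMSO arrays, and the groups overlapped. The average over the times was 0.093 ± 0.031 (95% interval 0.027 to 0.16, 1.07-fold, limma adjusted p = 0.292). All 3 celastrol group means of Foxo1, from 9.71 to 9.81, lay above its 3 DMSO group means, from 9.63 to 9.67. The same held for Irs2 and Txnip, and the reverse for Sesn3. How many of all tested genes show such an order was not counted. Over 30 other settings the Foxo1 average stayed between 0.073 and 0.11, and its adjusted p between 0.131 and 0.547.

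Foxo3 differed by -0.025 ± 0.057 at 6 h, 0.064 ± 0.057 at 1 day and 0.13 ± 0.061 at 4 days (limma adjusted p = 0.925, 0.822 and 0.755). At 4 days the celastrol arrays read 9.62, 9.67 and 9.81 and the DMSO arrays 9.58, 9.60 and 9.51, without overlap. At 1 day celastrol replicate 1 read 9.57 and the other 3 celastrol arrays 9.69 to 9.71, so that the groups, with DMSO at 9.57, 9.62 and 9.63, overlapped through that array. None of the steps between neighbouring group means of Foxo3 was wider than its SD within groups, 0.074.

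Both sestrins lay below 0 at 6 h, and Sesn1 above and Sesn3 below 0 at the later times. Sesn3 was lower on celastrol arrays at each time, by differences of -0.089 ± 0.043, -0.069 ± 0.043 and -0.084 ± 0.046 (limma adjusted p = 0.658, 0.703 and 0.805). At 1 day the DMSO arrays read 11.69, 11.68 and 11.69 and the celastrol arrays 11.62, 11.59, 11.61 and 11.64. At 4 days DMSO read 11.67, 11.71 and 11.77 and celastrol 11.63, 11.63 and 11.64. The groups did not overlap at 1 day or at 4 days, and they overlapped at 6 h. The 3 celastrol group means were the lowest of the 6, and the only step wider than the SD within groups was the 0.053 that separated them from the DMSO means. That step is likewise a description and not a test. The average was small at -0.081 ± 0.025 (95% interval -0.13 to -0.028, 1.06-fold lower, limma adjusted p = 0.228), and it lay between -0.089 and -0.048 over 30 other settings.

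Sesn1 is a sestrin that p53 and FoxO factors are known to induce. On the DMSO arrays it read 11.05, 11.10 and 11.10 at 6 h, 10.75, 10.76 and 10.90 at 1 day and 10.76, 10.89 and 10.82 at 4 days. The celastrol arrays read 10.98, 10.92, 11.18 and 10.88 at 6 h, 10.91, 10.95, 10.90 and 10.93 at 1 day and 10.82, 10.81 and 11.09 at 4 days. The highest group mean was thus that of DMSO at 6 h, 11.09 ± 0.027 (SD, n = 3), and the lowest that of DMSO at 1 day, 10.80 ± 0.085. Celastrol minus DMSO was -0.096 ± 0.070 (SE) at 6 h, 0.12 ± 0.070 at 1 day and 0.085 ± 0.074 at 4 days (limma adjusted p = 0.739, 0.679 and 0.920). At 1 day the groups did not overlap, which held for 3 of the 10 genes (Sesn1 and Txnip with celastrol higher, Sesn3 with celastrol lower) and for 7.81% of all genes. Without celastrol replicate 3 the 4 day difference was -0.0045. The 1 day difference minus the 6 h difference was 0.22 ± 0.098 (limma adjusted p = 0.469).

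The Sesn1 window at chr10:41810324-41810623 (plus strand, GRCm38.p6, RefSeq) is shown because it is one of 2 member promoters with the FoxO site GTAAACA, the other being that of Txnip. In Sesn1 the match is on the reverse strand, TGTTTAC, in capitals, and begins 22 bases after the start. The other annotated Sesn1 window held no match.
Sesn1: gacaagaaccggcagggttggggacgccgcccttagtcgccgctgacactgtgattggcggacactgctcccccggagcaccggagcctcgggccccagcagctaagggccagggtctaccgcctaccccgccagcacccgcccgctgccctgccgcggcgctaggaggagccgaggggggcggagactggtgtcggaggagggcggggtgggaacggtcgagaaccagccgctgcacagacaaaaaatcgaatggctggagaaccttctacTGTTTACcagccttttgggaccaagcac

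Txnip, an arrestin-like protein whose transcript is known to follow glucose, glucocorticoids and FoxO activity, showed the widest differences of the 10 genes. On the DMSO arrays it read 9.52, 10.17 and 9.93 at 6 h, 9.47, 9.29 and 9.25 at 1 day and 9.33, 9.65 and 9.63 at 4 days. On the celastrol arrays it read 9.99, 10.06, 10.02 and 9.93 at 6 h, 9.94, 10.01, 10.15 and 9.70 at 1 day and 9.50, 9.97 and 10.22 at 4 days. At 1 day every celastrol array lay above every DMSO array, while at 6 h and at 4 days the groups overlapped.

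The 1 day means of Txnip were 9.95 ± 0.19 (SD, n = 4) with celastrol and 9.34 ± 0.12 (n = 3) with DMSO. The difference was 0.61 ± 0.15 (SE), or 1.53-fold, with a 95% interval from 0.30 to 0.93. Its limma adjusted p was 0.0993 and its unadjusted p ranked it 90th of 14129 genes, so it did not pass. The difference was 0.13 ± 0.15 (adjusted p = 0.838) at 6 h and 0.36 ± 0.16 (0.739) at 4 days, and the average over the times was 0.37 ± 0.089 (1.29-fold, limma adjusted p = 0.0706). The 1 day call depended on the setting. Txnip passed in 7 of 31 other settings: with array weights (adjusted p = 0.0282), with only the arrays of the groups compared (0.0312), with the replicate block (0.0317), with an intensity trend (0.0395), without DMSO replicate 1 at 6 h (0.0477), and without celastrol replicate 1 (0.0331) or replicate 3 (0.0455) at 4 days. Across the 31 settings the difference lay between 0.55 and 0.70 and the adjusted p between 0.0282 and 0.376. The average passed in 4 of 30, among them without DMSO replicate 2 at 6 h (0.0227) and without celastrol replicate 1 at 4 days (0.00705).

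Levels of Txnip over time are described by group, and none of its comparisons between times passed an adjusted p of 0.05 in limma. Celastrol means of Txnip stayed between 9.90 and 10.001 at the 3 times, whereas the DMSO mean was 9.87 at 6 h, 9.34 at 1 day and 9.54 at 4 days. In the order of its 6 group means, the 3 celastrol groups and DMSO at 6 h lay within 0.13 of each other. The step down to DMSO at 4 days was 0.34, wider than the SD within groups of 0.22. That SD describes single arrays and the means were sorted first, so the step is a description and not a test. DMSO at 6 h was itself scattered, with an SD of 0.33. The 6 h difference turned to -0.052 without DMSO replicate 1, the lowest of the 3. The 1 day difference minus the 6 h difference was 0.49 ± 0.21 (limma adjusted p = 0.464), and in this test of the difference between times 0.00708% of all genes passed. In it, 2 of the 10 had an unadjusted p under 0.05, Txnip and Sesn1, against 10.3% of all genes.

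Mean levels of several marker lists are given beside the 1 day comparison. The mean level of 20 known glucocorticoid targets, a list that does not hold Txnip, was 10.16 to 10.31 on the celastrol arrays at 1 day and 9.55 to 9.67 on the DMSO arrays. At 6 h its ranges were 10.02 to 10.23 and 9.81 to 10.38, and at 4 days 9.82 to 10.51 and 9.49 to 9.72. The mean of 9 oligodendrocyte markers at 1 day was 11.10 to 11.26 with celastrol and 11.27 to 11.44 with DMSO, with 7 of 9 lower and 1 of them passing. The mean of 8 tanycyte and ependymal markers was 8.72 to 8.77 with celastrol and 8.61 to 8.71 with DMSO, with 5 of 8 higher and 1 passing. The mean of 10 astrocyte markers was 10.97 to 11.02 with celastrol and 11.01 to 11.08 with DMSO, with 6 of 10 lower and 1 passing. Pituitary markers, 4 tested, were all lower at 1 day, with list means of 7.91 to 8.74 against 8.28 to 8.93. The part of these in the Txnip difference was not tested. Txnip at 1 day was 0.57 without both arrays that stood apart (adjusted p = 0.139) and 0.62 with the thalamus marker level as a covariate (0.132).

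The Txnip window at chr3:96557707-96558006 (plus strand, GRCm38.p6, RefSeq) held the FoxO site GTAAACA, which begins 121 bases before the start, and the spaced glucocorticoid core ACANNNTGT, which begins 170 bases before it. Both are in capitals.
Txnip: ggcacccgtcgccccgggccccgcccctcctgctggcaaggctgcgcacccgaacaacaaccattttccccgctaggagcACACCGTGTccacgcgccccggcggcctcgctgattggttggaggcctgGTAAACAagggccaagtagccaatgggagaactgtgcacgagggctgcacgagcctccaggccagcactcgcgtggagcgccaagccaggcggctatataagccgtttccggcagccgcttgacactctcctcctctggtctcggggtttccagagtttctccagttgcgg

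On either strand, 3.65% of the 32851 windows hold GTAAACA and 6.85% hold ACANNNTGT. The full palindromic glucocorticoid response element, held by 3 of them, was not in any of the 9 windows of the 8 genes with an entry. Of the CCAAT box, CCAAT, which 37.4% of windows hold, Txnip has 2 copies, on opposite strands at 137 and 102 bases before the start.

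Eif4ebp1 was the dimmest of the 10 probe sets, with group means from 8.07 to 8.23, and it encodes the translation repressor 4E-BP1. Celastrol arrays ranged from 8.13 to 8.41 at 6 h, 8.11 to 8.20 at 1 day and 8.04 to 8.20 at 4 days. DMSO arrays ranged from 8.003 to 8.29, 7.98 to 8.17 and 8.19 to 8.26. The differences were 0.086 ± 0.069, 0.095 ± 0.069 and -0.073 ± 0.074 (limma adjusted p = 0.762, 0.760 and 0.944), with overlap at every time.

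Across time within the DMSO arrays, all 10 genes were lower at 1 day than at 6 h, while 49.1% of all tested genes lay above 0 in that comparison. The median difference was -0.081 for the 10 genes and -0.0020 for all genes. None of the 10 passed (limma), and 0.0991% of all genes did. At an unadjusted p under 0.05 there were 3 of the 10, Igf1r, Sesn1 and Txnip, against 12.5% of all genes. The groups did not overlap for 5, Igf1r, Irs1, Foxo3, Sesn1 and Txnip, all lower at 1 day, against 14.4% of all genes in either direction and 7.93% in that one. The 10 values come from the same 6 arrays, so their common sign does not count as 10 separate observations.

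Sesn1 had the smallest p of the 10 over time in DMSO, at -0.28 ± 0.074 (1.22-fold lower at 1 day, limma adjusted p = 0.113) and -0.26 ± 0.074 at 4 days against 6 h (0.212), a comparison in which 0.0283% of all genes passed. Unadjusted, 2 of the 10 stood out there, Sesn1 and Txnip, against 10.6% of all genes, and Foxo3 and Sesn1 did not overlap, against 14.2%. Txnip differed by -0.54 ± 0.16 (1.45-fold lower, 0.167) and -0.34 ± 0.16 (0.471), and Igf1r by -0.13 ± 0.046 (0.228) and -0.058 ± 0.046 (0.694). The same DMSO arrays at 6 h, 1 day and 4 days are the controls of the celastrol comparisons, so these values and the celastrol differences are not separate evidence. The DMSO arrays at 6 h are also those with the thalamus marker levels given above. With that level as a covariate, the 1 day against 6 h differences were -0.24 for Sesn1, -0.52 for Txnip and -0.11 for Igf1r (adjusted p = 0.617, 0.609 and 0.695). Of the 20 glucocorticoid targets, 1 lay above 0 between these groups, the median was -0.47, and Sgk1 fell by 0.94 ± 0.13 (limma adjusted p = 0.00779). The part of this in the 10 genes was not tested.

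From DMSO at 1 day to DMSO at 4 days, 9 of the 10 differences were above 0 and none passed, with 0% of all genes passing, 7.37% at an unadjusted p under 0.05 (none of the 10) and 14.5% not overlapping. Those not overlapping among the 10 were Igf1r and Eif4ebp1, both higher at 4 days. The median difference was 0.035 for the 10 genes and -0.0021 for all genes. The DMSO arrays at 1 day also serve in the comparison with 6 h, so the directions in these comparisons are not separate observations. Within the celastrol arrays, none of the 10 passed from 6 h to 1 day or from 1 day to 4 days, where 0.134% and 0.0425% of all genes did. Unadjusted, 0 of the 10 stood out from 6 h to 1 day and 2, Igf1r and Irs1, from 1 day to 4 days, against 17.2% and 12.1% of all genes. The same 2 did not overlap between celastrol at 1 day and at 4 days, both higher at 4 days, against 11.9% of all genes, whereas all 10 overlapped between celastrol at 6 h and at 1 day, where 10.2% of all genes did not.

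Txnip had the widest spread among the 10 on both measures. The range of its group means, 0.66, lay at the 99.7th percentile of all tested genes, and that of Sesn1, 0.28, at the 93.5th. In 4 of the other genes a single step between neighbouring group means, or none, exceeded the SD within groups: for Insr 0.067, up to celastrol at 4 days, for Irs1 0.065, from DMSO at 1 day to DMSO at 4 days, for Foxo1 0.075, up to celastrol at 4 days, and for Eif4ebp1 none. For Sesn1 the only such step, 0.0961 from celastrol at 6 h to DMSO at 6 h, barely exceeded its SD of 0.0960. The ranges of the other 8 lay between 0.10 for Sesn3, at the 23.5th percentile, and 0.18 for Foxo1, at the 67.4th.

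Some of the genes varied together from array to array. Over the 20 arrays, Foxo3 correlated with Sesn1 at r = 0.717 and with Irs2 at r = 0.716, and after the 6 group means were removed these values were 0.720 and 0.712. Txnip correlated with Foxo3 at 0.603 and with Foxo1 at 0.601, which became 0.453 and 0.508 within groups. Irs1 and Foxo3 reached 0.428 over all arrays and 0.655 within groups. The receptor and its substrate, Igf1r and Irs1, correlated at 0.522 over all arrays and at 0.014 within groups. Insr and Eif4ebp1 ran opposite, at -0.549 and -0.628, and so did Foxo3 and Sesn3, at -0.530 and -0.500. These are descriptions over 20 points that share their arrays and tissue samples.

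**Figure D3:**
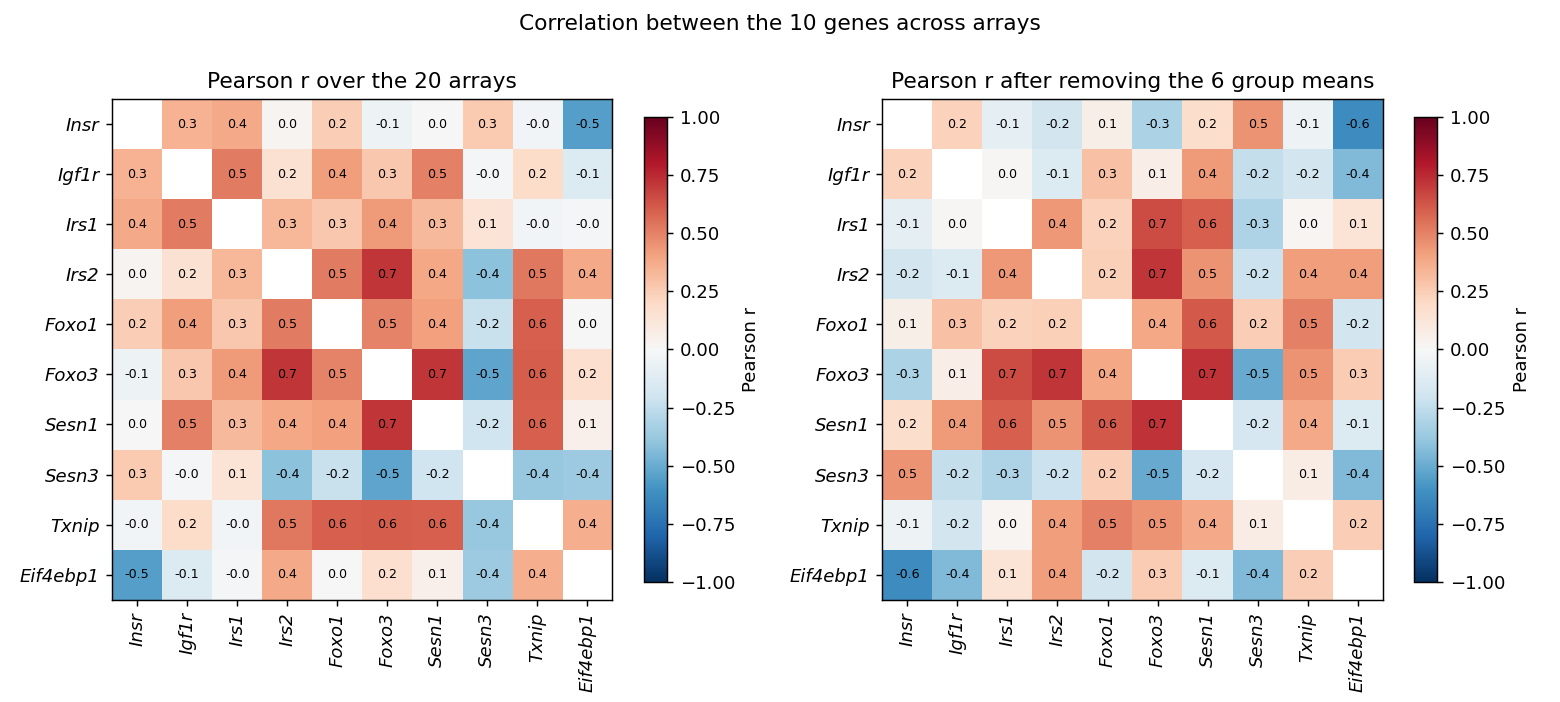
Pearson correlation between the 10 genes over 20 arrays (left) and after the means of the 6 groups were removed (right), with red above 0 and blue below 0. Foxo3 with Sesn1 and with Irs2 gave the highest values on the left, 0.717 and 0.716, and both exceed 0.7 on the right.

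For Txnip, which passed in some settings, the tested genes with the most similar profile over the 20 arrays were Plekhf1 (r = 0.927), F3, the gene of tissue factor (0.917), and Osmr, the oncostatin M receptor (0.917). Within groups these values were 0.852, 0.863 and 0.875.

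Other genes of the same pathways were examined as lists, with the percentages of all genes passing given above. None of 27 tested genes of the PI3 kinase and AKT pathway passed at any of the 3 times or in the average, and the list's median difference at 1 day was 0.026. Its smallest p values at 1 day were those of Tbc1d4, the AKT substrate that holds back glucose transporter vesicles, at 0.18 ± 0.058, and Ptpn1, the phosphatase that dephosphorylates the insulin receptor, at 0.14 ± 0.053 (limma adjusted p = 0.299 and 0.409). Of 10 tested genes of the IGF axis none passed at a single time. Igfbp7, an IGF-binding protein of the vessel wall, was higher with celastrol in the average over the times by 0.34 ± 0.071 (limma adjusted p = 0.0322). At 1 day it read 11.65 to 11.75 on celastrol arrays and 11.23 to 11.30 on DMSO arrays, a difference of 0.45 ± 0.12 (0.144). Its average passed in 14 of 30 other settings and in 7 of the 20 that left out 1 array, with adjusted p up to 0.479 when the thalamus marker level was a covariate. Igfals, which holds IGFs in the circulation, differed by -0.17 ± 0.081 at 1 day (0.615). It was dim, with group means from 7.17 to 7.45, near the level of 7.04 under which probe sets were left out.

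Among 39 tested genes of mTORC1, AMPK and amino acid sensing, 1 passed as higher with celastrol at 1 day and none as lower. This was Ddit4, an inhibitor of mTORC1 that glucocorticoids and hypoxia are known to induce. It read 9.89 to 10.12 on celastrol arrays and 9.28 to 9.34 on DMSO arrays, a difference of 0.68 ± 0.11 (limma adjusted p = 0.00500), and it passed in all 31 other settings. In the average over the times Ddit4 passed at 0.43 ± 0.063 (0.00222). That call was kept in 29 of 30 other settings and lost with the thalamus marker level as a covariate (0.0538). Lamtor2, a subunit of the Ragulator complex on lysosomes, differed by 0.27 ± 0.064 at 1 day (0.0771) and in the other direction, by -0.15 ± 0.064, at 6 h (0.651). Its DMSO mean was 8.79 at 6 h and 8.55 at 1 day. The list's median was 0.019 at 1 day and -0.048 at 6 h.

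Of 23 tested FoxO family members and known FoxO targets, 1 passed as higher with celastrol at 1 day, the transcriptional repressor gene Bcl6. It read 9.53 to 9.74 on celastrol arrays and 9.06 to 9.18 on DMSO arrays, a difference of 0.50 ± 0.086 (limma adjusted p = 0.00911), and it passed in 30 of 31 other settings, with an adjusted p of 0.0685 without DMSO replicate 2 at 1 day. In the average over the times Bcl6 passed at 0.28 ± 0.051 (0.0129). That call was kept in 29 of 30 other settings and lost with the thalamus marker level as a covariate (0.178). Klf15, a regulator of amino acid and glucose metabolism, differed by 0.42 ± 0.098 at 1 day (0.0726). It passed in the average over the times at 0.28 ± 0.058 (0.0315). This call was kept in 15 of 30 other settings and in 7 of the 20 that left out 1 array. It was lost without both arrays that stood apart (0.112) and with the thalamus marker level as a covariate (0.364). The list's median at 1 day was 0.025, with 14 of 23 above 0.

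Of 16 tested genes for thioredoxin, arrestin domain proteins and glucose sensing, 2 passed as higher with celastrol at 1 day. Arrdc2, which like Txnip encodes an arrestin domain protein, read 8.69 to 8.77 against 7.96 to 8.14, a difference of 0.68 ± 0.12 (limma adjusted p = 0.0166). Slc2a1, the glucose transporter GLUT1 of the blood-brain barrier, read 12.65 to 12.91 against 12.21 to 12.34, a difference of 0.48 ± 0.092 (0.0205). The 1 day Arrdc2 call was lost without DMSO replicate 1, 2 or 3 at 1 day (adjusted p = 0.0530, 0.0712 and 0.0716), and without both arrays that stood apart (0.0664). The 1 day Slc2a1 call was lost without any of the same 3 arrays (0.124, 0.0647 and 0.0903) or without celastrol replicate 2 (0.0603) or 3 (0.0913) at 1 day, and without both arrays that stood apart (0.0702). In the average over the times Arrdc2 passed at 0.48 ± 0.073 (limma adjusted p = 0.00267) and Slc2a1 at 0.32 ± 0.054 (0.0081). Each of these average calls was kept in 29 of 30 other settings and in all 20 that left out 1 array. Each was lost with the thalamus marker level as a covariate (0.0538 and 0.150). The mean of 7 endothelial markers at 1 day was 8.97 to 9.21 with celastrol and 9.17 to 9.25 with DMSO, with 4 of 7 lower and 1 passing, and its part in the Slc2a1 difference was not tested.

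The DMSO mean was higher at 6 h than at 1 day in Txnip and the 4 pathway genes higher with celastrol at 1 day. These 4 were picked by a comparison that uses the same DMSO arrays at 1 day. A low DMSO mean at 1 day is thus not a separate result. Between DMSO at 1 day and at 6 h none of these 4 passed (limma adjusted p = 0.0686 for Ddit4, 0.0947 for Bcl6, 0.0686 for Arrdc2 and 0.229 for Slc2a1). Their DMSO means at 6 h were 9.81 for Ddit4, 9.50 for Bcl6, 8.64 for Arrdc2 and 12.55 for Slc2a1, and at 1 day 9.30, 9.13, 8.05 and 12.27. Their celastrol means were 9.80, 9.51, 8.75 and 12.67 at 6 h and 9.99, 9.63, 8.73 and 12.75 at 1 day, so that of Arrdc2 was no higher at 1 day than at 6 h. Ddit4 and Arrdc2 also belong to the glucocorticoid target list, of which 11 of 20 tested genes passed as higher with celastrol at 1 day and 1, Sgk1, at 4 days, with medians of 0.65 and 0.36. The 11 include Sgk1 at 1.16 ± 0.12 (limma adjusted p = 0.000236), Fkbp5 at 0.88 ± 0.17 (0.0256) and Tsc22d3 at 0.61 ± 0.11 (0.0192). That list was known from an earlier analysis of these arrays to be higher, so its count is not independent evidence of its direction.

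**Figure D4:**
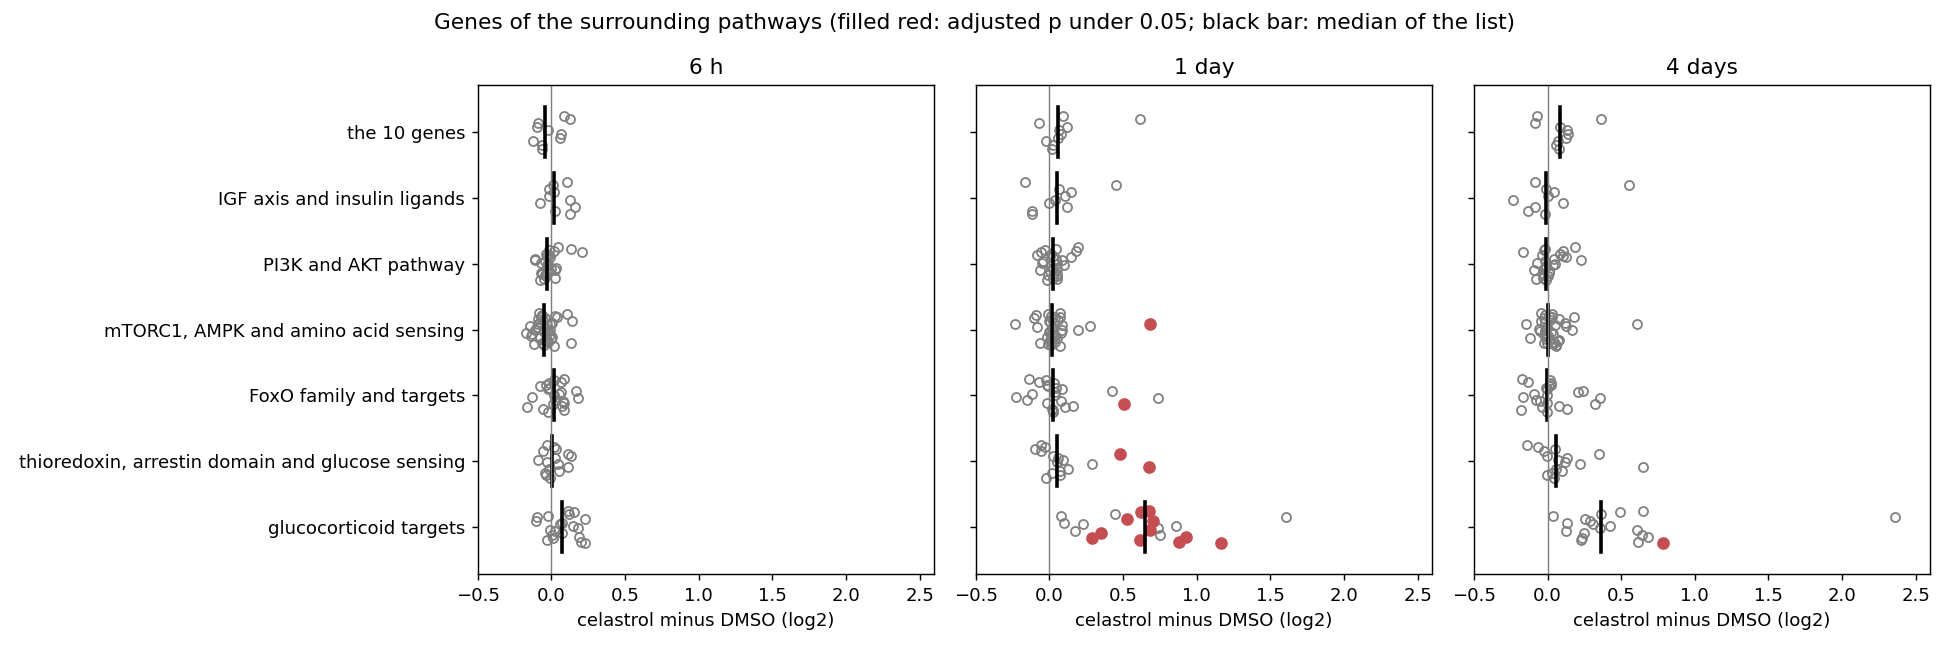
Celastrol minus DMSO on the log2 scale for each tested gene of the 10 described here and of 6 lists, at 6 h, 1 day and 4 days; filled red points passed an adjusted p of 0.05 and black bars are list medians. None of the 10 genes and none of the PI3K and AKT or IGF genes is filled at any time, and at 1 day the glucocorticoid targets have 11 filled points and a median of 0.65.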

How the data were processed

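Values were log2 intensities as deposited by the authors, for 23492 probe sets on 20 arrays. RMA is the method in the submitters' processing notes, given with no version; it subtracts background, normalizes arrays to common quantiles and combines probes into probe sets. Per the labels' protocols, total RNA was extracted with Trizol and labelled with the Affymetrix WT kits. The genome build is not given in the sources used here. Array medians lay between 8.60 and 8.65, no pair of arrays was identical, and the number of arrays limits the precision.

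Of the probe sets, 20228 had exactly 1 gene symbol, 1399 several and 1865 none. For 809 of 18704 genes with several, the brightest probe set was used. The dimmest probe sets, under the 25th percentile over all arrays (log2 7.04), were left out. Differences were tested in limma 3.58.1 (R 4.3.3) with 6 group means, eBayes, and two-sided p-values adjusted by Benjamini-Hochberg over 14129 genes at a threshold of 0.05, with 14 residual and 4.92 prior degrees of freedom. Every adjusted p comes from this test unless a setting is named. The test was also run on simulated data with independent normal noise for each gene and array. Such data copy neither the correlation between genes nor the arrays that stood apart. Figures were drawn with matplotlib 3.10.9.

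Alternatives were the dim filter, median centring, a repeated quantile normalization, array weights, the mean of a gene's probe sets, only the arrays compared, the replicate block, array SD as a covariate, an intensity trend, and leaving out each array or both arrays that stood apart. The thalamus marker level as a covariate was added after the data were seen. The genes and lists were chosen with earlier results of these data known. All 10 genes are named. Of each list, genes passing in celastrol against DMSO are named, and where fewer than 2 passed, the 2 with the smallest p at 1 day. Of the 11 glucocorticoid targets that passed, the text names 5.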

Additional observations from a re-analysis of the deposited data

Results flagged for a closer look

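Foxo3 on celastrol replicate 1 at 1 day read 9.57, below the other 3 arrays of its group, which read 9.69 to 9.71. The gap was 0.835 of the group's range, past Dixon's criterion for 4 arrays. In 20 combinations of a gene and a group of 4 arrays, this was the 1 that stood out, and chance alone gives about 5%.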

How the results depend on the processing

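Counts of the 10 genes passing were 0 in all 13 comparisons and stayed at 0 in all but 12 of 402 combinations with another setting, where the count was 1. For celastrol against DMSO at 1 day it was 1 (Txnip) with array weights, with only the arrays compared, with the replicate block and with an intensity trend. For the average over the times it was 1 (Txnip) with the replicate block and with the trend, and for celastrol at 4 days against 6 h it was 1 (Irs1) with array weights. Leaving out 1 array gave counts from 0 to 1 for the 1 day comparison and for the average, and 0 for the other 11. With the replicate block Txnip differed by 0.67 at 1 day and 0.40 in the average. The labels name no batch, so whether arrays of the same replicate number share one is not known. Correlations of the residuals of same-numbered arrays ran from -0.356 to 0.518, and 13 of 46 pairs were over 0.1. Of the 20 arrays, 7 correlated best with their own number. Both arrays that stood apart were replicate 3. These values cannot settle whether the numbers mark a batch.

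Of 1813 single-gene values under other settings, 1741 kept direction and call, 58 changed the call and 14 changed sign, none of them past the threshold before or after. The sign changed for Insr at 1 day with median centring (-0.0022) and for Foxo3 at 6 h with quantile normalization (0.0070). Eif4ebp1 turned in the average with array weights (-2.08e-05), without both arrays that stood apart (-0.0038) and with the thalamus covariate (-0.0059), which also turned it at 6 h (-0.017). Over settings that left out 1 array, Insr at 1 day ran from -0.013 (without DMSO replicate 1) to 0.065 and its average from -3.58e-05 (the same array) to 0.026. Foxo3 at 6 h ran from -0.064 to 0.024, above 0 without DMSO replicate 2 (0.024) or celastrol replicate 4 (0.0030). Txnip at 6 h ran from -0.052 (without DMSO replicate 1) to 0.27, and Sesn1 at 4 days from -0.0045 (without celastrol replicate 3) to 0.13. The Igf1r average ran from -0.0026 to 0.018, below 0 without celastrol replicate 3 (-0.0026) or DMSO replicate 2 (-0.0017) at 6 h. The cause of these changes was not tested.

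The count of all genes passing ranged from 0 to 6 at 6 h (0 in the reported fit), 18 to 196 at 1 day (60), 0 to 20 at 4 days (9) and 11 to 156 in the average (81), with 196 from array weights and 18 without DMSO replicate 1 at 1 day. Between DMSO groups it ranged from 0 to 137 at 1 day against 6 h (14), 0 to 51 at 4 days against 6 h (4) and 0 to 147 at 4 days against 1 day (0). With 3 or 4 arrays a group, 95% intervals reached at most 0.3 from 0 for 9 of the 10 genes at each time, and farther for Txnip.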
